A study of Rattus norvegicus with 6 samples.

Results

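Heart muscle keeps its ATP level steady with a phosphate reserve, and the genes described here make, import and use that reserve. They are Ckm, Ckb and Ckmt2, which encode creatine kinases, Slc6a8, which encodes the creatine transporter of the cell membrane, and Gatm, which encodes the enzyme of the first step of creatine synthesis. Ak1, the cytosolic adenylate kinase, was listed with them. The 6 genes were chosen by function, with earlier results of these data known, and found by gene symbol in GEO's platform annotation of 2016. Of these 6 genes, 5 were matched, to 7 of the 31042 probe sets tested. A probe set is a group of probes on the array that reads 1 transcript. No probe set was matched to Ak1, which is not analysed here, so no adenylate kinase stood among the measured members. Other adenylate kinases are given with the pathway.

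Creatine kinases move phosphate between ATP and creatine. Ckm and Ckb encode cytosolic forms, and Ckmt2 encodes the form of muscle mitochondria, which charges creatine with phosphate where ATP is made. Heart muscle takes up most of its creatine from the blood through the transporter, while Gatm and Gamt encode the 2 enzymes of its synthesis. Adenylate kinases turn paired ADP into ATP and AMP, and AMP activates the energy sensor AMP-activated protein kinase.

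The samples were cultured heart muscle cells of Wistar rats aged 1 to 2 days, measured with 6 single-channel Affymetrix arrays, 2 for each of 3 groups. All groups shared isolation with pancreatin and collagenase, removal of fibroblasts on Percoll, and culture medium with serum. Control cells had no treatment. The phenylephrine group was exposed to this α1-adrenergic agonist, a growth stimulus for myocytes, at 50 µmol/l. The stretch group was stretched along both axes to 112% for 24 h on silicone coated with collagen, after 36 h of attachment and 24 h in medium free of serum. How long phenylephrine was given is not stated in the sources used here. Nor is it stated on what surface control and phenylephrine cells grew, or whether they were kept without serum. Any such difference cannot be told apart from stretch in the comparisons with the stretch group. RNA of several preparations was pooled, and no label ties the 2 arrays of a group to separate cultures, so p-values reflect the spread among these samples only, and that spread may be technical. Newborn cells in culture limit what the groups model, since creatine kinase forms shift as the heart matures.

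The medians of the 6 arrays lay within 0.0381 log2 of each other, with interquartile ranges between 1.70 and 1.92. Phenylephrine replicate 2 had the narrowest range and the lowest hybridization controls, with a median of 9.04 log2 against 9.68 to 9.95 on the other 5 arrays. The 11 measured cardiomyocyte markers had a mean signal between 14.06 and 14.33 log2 on every array, and 10 skeletal muscle markers, a tissue that also expresses Ckm, had a mean signal between 7.61 and 7.69. Values below are log2 signals as deposited, and a change is the difference between 2 group means, with its standard error (SE) from a limma fit to all 6 arrays. Adjusted p-values are limma's with Benjamini-Hochberg adjustment over all 31042 probe sets, the threshold is 0.05, n = 2 arrays per group, and intervals are 95% and not adjusted. Probes differ in brightness, so signals of different probe sets, the marker lists included, describe the range each was read in and do not compare amounts of RNA.

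Under phenylephrine, the creatine transporter gene Slc6a8 fell to 66.6% of its control level on the probe set that stands for it, and Gamt, which encodes the second enzyme of creatine synthesis, fell 2.24-fold. None of the 3 creatine kinase genes passed the threshold, and neither did Gatm. With stretch, limma called 0 of the 7 member probe sets, while 2 were under 0.05 before adjustment, those of Ckmt2 and of the dimmer Slc6a8 probe set. Before adjustment, 2 of the 7 were also under 0.05 with phenylephrine and 4 for stretch against phenylephrine. Over all 31042 probe sets, 1719 were under 0.05 before adjustment with stretch, 5142 with phenylephrine and 3871 for stretch against phenylephrine. Stretched cells had 1.61-fold more Slc6a8 signal than phenylephrine cells. Beside the calls after adjustment, limma called 0.345% of all probe sets for stretch against control, 3.60% for phenylephrine against control and 1.33% for stretch against phenylephrine. By direction, 0.0387% fell and 0.306% rose with stretch, 1.87% fell and 1.73% rose with phenylephrine, and 0.718% were higher and 0.612% lower in stretch than in phenylephrine cells. Quantile normalization, which gives all arrays the same distribution, turned the share of rises among all stretch calls from 88.8% into 72.5%.

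**Figure D1:**
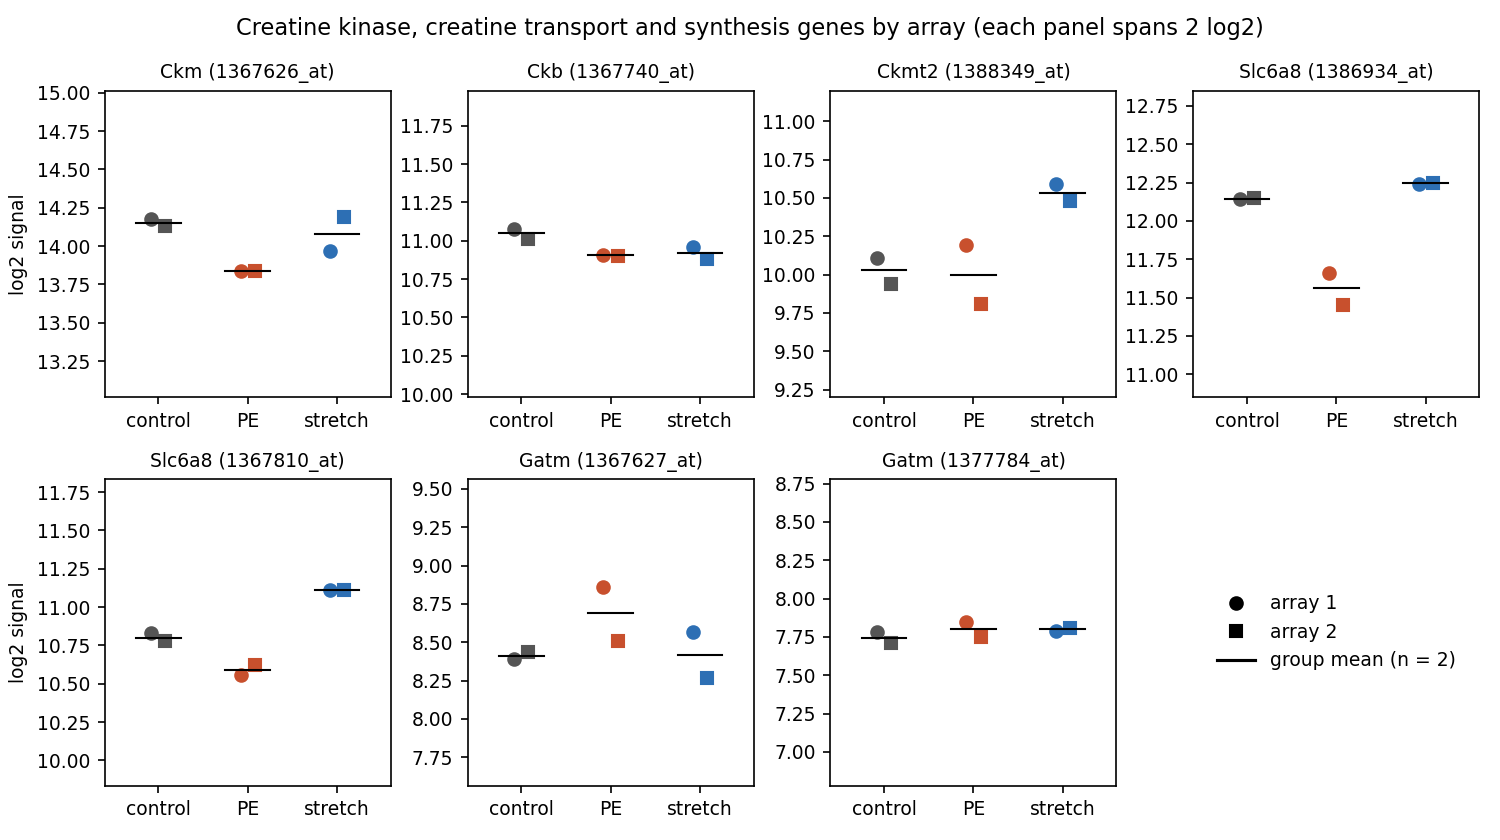
Log2 signal (vertical axis) of the 7 member probe sets on each of the 6 arrays, by group (horizontal axis; PE is phenylephrine), with array 1 as a circle, array 2 as a square and the group mean (n = 2) as a line. Both phenylephrine arrays lie below the other 4 for Ckm and for both Slc6a8 probe sets, and both stretch arrays lie above the other 4 for Ckmt2 and both Slc6a8 probe sets.

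The promoters of the 2 genes of creatine supply that fell with phenylephrine are printed here with those of the creatine kinase genes that had the largest differences with phenylephrine (Ckm) and with stretch (Ckmt2), neither past the threshold. Each is the 250 bases before the annotated start, from RefSeq, build GRCr8. They are Slc6a8 (chrX:156535767-156536016, plus strand), Gamt (chr7:10099034-10099283, plus strand), Ckm (chr1:88189211-88189460, plus strand) and Ckmt2 (chr2:24845512-24845761, minus strand). Capitals mark matches, on either strand, to the E-box CANNTG, which muscle regulators of the MyoD family and other factors bind, to the MEF2 pattern (CTA, any 4 bases, TAG), to the estrogen-related receptor pattern AAGGTCA or to the CArG box of SRF.
Slc6a8: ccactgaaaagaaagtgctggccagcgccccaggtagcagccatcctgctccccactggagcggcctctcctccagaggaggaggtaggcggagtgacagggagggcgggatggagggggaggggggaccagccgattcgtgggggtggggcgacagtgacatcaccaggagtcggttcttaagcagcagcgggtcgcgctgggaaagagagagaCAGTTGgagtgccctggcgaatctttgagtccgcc
Gamt: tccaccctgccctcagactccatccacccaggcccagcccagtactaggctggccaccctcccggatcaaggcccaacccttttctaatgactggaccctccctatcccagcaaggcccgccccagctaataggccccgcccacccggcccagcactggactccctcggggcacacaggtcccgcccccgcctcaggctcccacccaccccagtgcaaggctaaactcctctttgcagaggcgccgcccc
Ckm: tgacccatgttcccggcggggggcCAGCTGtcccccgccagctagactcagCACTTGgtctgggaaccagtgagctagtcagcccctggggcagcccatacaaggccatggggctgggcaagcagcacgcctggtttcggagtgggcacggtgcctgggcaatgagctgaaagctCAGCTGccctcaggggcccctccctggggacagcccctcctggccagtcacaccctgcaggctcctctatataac
Ckmt2: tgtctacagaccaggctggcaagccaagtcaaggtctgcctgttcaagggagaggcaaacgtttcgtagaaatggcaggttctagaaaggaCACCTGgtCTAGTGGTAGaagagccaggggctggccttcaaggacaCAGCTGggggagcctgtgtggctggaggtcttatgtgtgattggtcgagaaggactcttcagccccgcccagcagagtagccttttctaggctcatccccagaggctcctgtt

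The Slc6a8 promoter held 1 E-box, CAGTTG, which started 35 bases before the annotated start, and the Gamt promoter had no match to any of the 4 patterns. The Ckm promoter held 3 E-boxes, CAGCTG at 226 and 75 bases and CACTTG at 199 bases before the start. The Ckmt2 promoter held CACCTG at 159 bases and CAGCTG at 113 bases, with CTAGTGGTAG, a match to the loose MEF2 pattern, at 151 bases. The Ckb promoter, not printed, held CTATAAATAG at 76 bases and no E-box, and the Gatm promoter held CACCTG at 80 bases. The promoter of the adenylate kinase gene Ak4, also not printed, had no match to any of the 4 patterns. Of 33469 rat promoters of this length, 65.5% held an E-box, 3.41% the MEF2 pattern, 3.99% the estrogen-related receptor pattern, and 501 of them held a CArG box. No pattern overlapped another in the printed promoters. These matches are letters in a window and not measured binding sites. Of the MyoD family, Myod1, Myog and Myf6 had control means of 7.03, 7.46 and 6.73 log2, below the array medians.

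Slc6a8 was read by 2 probe sets. Probe set 1386934_at, the brighter, had 12.14 and 12.15 log2 on the control arrays, 11.66 and 11.45 on the phenylephrine arrays and 12.24 and 12.25 on the stretch arrays. Both phenylephrine arrays were thus below all others, by more than the gap of 0.21 between them, and both stretch arrays were just above the controls. The group means were 12.14 ± 0.00 for control, 11.56 ± 0.15 for phenylephrine and 12.25 ± 0.01 for stretch (SD, n = 2). The change with phenylephrine was -0.59 ± 0.12 log2 (SE), a fall to 66.6% of control with an interval from 1.24-fold to 1.81-fold lower (limma adjusted p = 0.0375). Stretch was 0.69 ± 0.12 above phenylephrine, 1.61-fold with an interval from 1.34-fold to 1.95-fold (limma adjusted p = 0.038). Stretch against control gave 0.11 ± 0.12, between 1.12-fold lower and 1.30-fold higher, and did not pass (limma adjusted p = 1).

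The other Slc6a8 probe set, 1367810_at, gave smaller values for phenylephrine and larger ones for stretch. It had 10.83 and 10.78 log2 on the control arrays, 10.56 and 10.62 on the phenylephrine arrays, and 11.11 on both stretch arrays. The order of the groups was the same as on the brighter probe set, again without overlap. None of its 3 changes passed in limma. They were -0.21 ± 0.11 with phenylephrine (adjusted p = 0.379), 0.30 ± 0.11 with stretch (adjusted p = 0.68) and 0.52 ± 0.11 for stretch against phenylephrine (adjusted p = 0.0719). Averaging both probe sets ended the phenylephrine call (-0.40; adjusted p = 0.0661) and kept that of stretch against phenylephrine (0.60; adjusted p = 0.0247).

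Both Slc6a8 calls lay close to the threshold. The phenylephrine call ended when only the 2 groups compared entered the fit (adjusted p = 0.0986) and without control replicate 1 (0.205) or 2 (0.263), phenylephrine replicate 2 (0.0906), or stretch replicate 1 (0.0976) or 2 (0.0977), with changes between -0.69 and -0.48 over all 6 omissions. The call of stretch against phenylephrine ended in the fit of these 2 groups (adjusted p = 0.095) and without the same 5 arrays in that order (0.0947, 0.0924, 0.0876, 0.25 and 0.289), with changes between 0.59 and 0.80. Omitting phenylephrine replicate 1 left both calls in place, and quantile normalization gave adjusted p = 0.00162 and 0.00243.

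The 3 genes whose 6 values moved most like those of the brighter Slc6a8 probe set were Twsg1, Angpt2 and Cblb. Likeness was the root mean square difference over the 6 arrays after subtraction of each probe set's control mean, which was 0.045, 0.049 and 0.060 log2. Twsg1, which encodes a binding protein of bone morphogenetic proteins, had 11.35 and 11.31 on the control, 10.81 and 10.56 on the phenylephrine and 11.37 and 11.42 on the stretch arrays. Angpt2, an angiopoietin, had changes of -0.53 with phenylephrine and 0.14 with stretch, and Cblb, a ubiquitin ligase, had -0.59 and 0.01. They were picked from all genes for this likeness, so it is a description with no test.

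Creatine synthesis was read through Gatm and Gamt. Gamt (probe set 1368253_at) had 10.64 and 10.47 log2 on the control arrays, 9.47 and 9.32 on the phenylephrine arrays, and 10.05 and 9.88 on the stretch arrays. The 3 groups did not overlap, with control highest, stretch between and phenylephrine lowest. Its fall with phenylephrine was -1.16 ± 0.12 log2, 2.24-fold with an interval from 1.85-fold to 2.71-fold (limma adjusted p = 0.0038), and passed in all 12 alternatives run. With stretch the change was -0.59 ± 0.12, 1.51-fold lower, which did not pass (limma adjusted p = 0.151) but did after quantile normalization (-0.61; adjusted p = 0.00964). Stretch against phenylephrine gave 0.57 ± 0.12 (limma adjusted p = 0.0764), which likewise passed only after quantile normalization among the settings without a term for the replicate number (0.51; adjusted p = 0.0091).

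Gatm did not pass in any comparison. Its brighter probe set, 1367627_at, had 8.39 and 8.44 log2 on the control arrays, 8.86 and 8.51 on the phenylephrine arrays, and 8.57 and 8.27 on the stretch arrays. The phenylephrine arrays were above the controls but differed from each other by 0.35, and the stretch arrays fell on either side of the controls. The change with phenylephrine was 0.27 ± 0.14 (limma adjusted p = 0.373), with an interval from -0.04 to 0.59, and that with stretch was 0.01 ± 0.14 (limma adjusted p = 1), from -0.31 to 0.32. Probe set 1377784_at was dim, between 7.71 and 7.85 on all arrays, with changes of 0.06 ± 0.06 for both treatments. Slc16a12, which encodes another membrane carrier of creatine and completes the list of creatine supply, had 8.86 and 8.65 on the control, 9.33 and 8.85 on the phenylephrine and 8.47 and 8.04 on the stretch arrays. The phenylephrine arrays overlapped the controls, and the stretch arrays were below both other groups. Its changes of 0.33 ± 0.19 with phenylephrine, -0.50 ± 0.19 with stretch and -0.83 ± 0.19 for stretch against phenylephrine did not pass (limma adjusted p = 0.438, 0.73 and 0.0901), though the last did after quantile normalization (-0.86; adjusted p = 0.0277). The dimmer Slc16a12 probe set, 1393516_at, gave 0.11 ± 0.12, -0.22 ± 0.12 and -0.33 ± 0.12 in the same order, and none of these passed in limma.

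Markers of other cells moved with phenylephrine in the same arrays. In these bulk samples, fewer cells of a type and less RNA per cell cannot be told apart. Of 12 fibroblast markers, 4 fell with phenylephrine (Col3a1, Pdgfra, Dpt and Postn) and 0 rose. The mean level of the list was 10.84 and 10.81 log2 on the control, 10.43 and 10.35 on the phenylephrine and 10.58 and 10.57 on the stretch arrays. Of 9 endothelial markers, Kdr and Emcn fell with phenylephrine, and the list means were 8.80 and 8.82, 8.59 and 8.53, and 8.70 and 8.67 on the same arrays. Stretch arrays lay between the controls and the phenylephrine arrays in both lists, the same order of groups as for Gamt. Kdr had changes of -0.93 with phenylephrine, -0.13 with stretch and 0.80 for stretch against phenylephrine. The first and the last passed, as for Slc6a8. The other endothelial markers did not share this, since for stretch against phenylephrine 4 of the 9 were above 0 and 5 below 0. Of 10 smooth muscle and pericyte markers, Cnn1, Acta2 and Cspg4 rose with phenylephrine, by 2.55, 0.96 and 1.30 log2, and 0 fell past the threshold. The list was split, with 5 changes above 0, 5 below 0 and a median of 0.02. Among those below 0, Smtn had -0.48 (limma adjusted p = 0.0724). Of 10 macrophage and leukocyte markers only Cd68 fell past the threshold (-0.52). The list means were 8.94 and 8.90 on the control, 8.79 and 8.71 on the phenylephrine and 8.93 and 8.85 on the stretch arrays. Phenylephrine was thus lowest by list mean there too, but this list was split, with 4 changes above 0, 6 below 0 and a median of -0.07. With stretch Cnn1 also rose (1.45), and of 8 Schwann cell and neuron markers only Uchl1 rose, with both stimuli. As means over all arrays, the signals of the fibroblast list ran from 7.25 (Mfap5) to 12.95 (Col3a1). Those of the endothelial list ran from 7.68 (Vwf) to 9.84 (Kdr). Cardiomyocyte markers had a median change of 0.17 with phenylephrine, with 0 of 11 past the threshold in limma and 2 at an unadjusted p under 0.05. The part of other cells in the changes of Slc6a8, Gamt and the pathway genes was not tested.

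**Figure D2:**
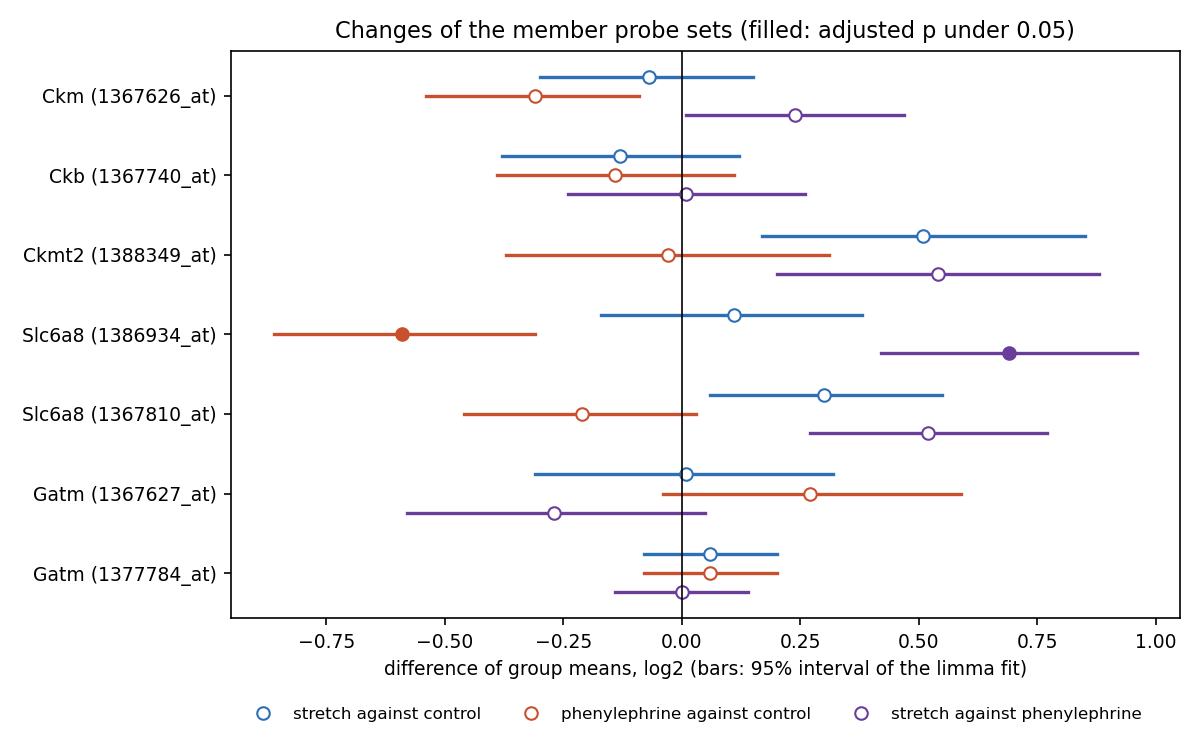
Differences of group means in log2 (horizontal axis) with 95% intervals of the limma fit for the 7 member probe sets (vertical axis), for stretch against control (blue), phenylephrine against control (orange) and stretch against phenylephrine (violet); filled points passed the threshold. The 2 filled points are those of Slc6a8 probe set 1386934_at, at -0.59 and 0.69.

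Ckm, the cytosolic creatine kinase of muscle (probe set 1367626_at), had 14.18 and 14.13 log2 on the control arrays, 13.84 on both phenylephrine arrays, and 13.97 and 14.19 on the stretch arrays. Both phenylephrine arrays were lowest, and the stretch arrays spanned the controls. The change with phenylephrine was -0.31 ± 0.10, 1.24-fold lower with an interval from 1.06-fold to 1.45-fold, and did not pass (limma adjusted p = 0.154). Stretch against control gave -0.07 ± 0.10 and stretch against phenylephrine 0.24 ± 0.10 (limma adjusted p = 1 and 0.371). Ckm was read near the upper end of the signal range, where 84 of 31042 probe sets had a higher signal on the control arrays and the brightest value on a control array was 14.85. After quantile normalization the phenylephrine change was -0.44 and passed (adjusted p = 0.00168), as did that of stretch against phenylephrine (0.28; adjusted p = 0.0183).

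Ckb, the cytosolic form of brain and of the early heart (probe set 1367740_at), had 11.08 and 11.01 log2 on the control arrays, 10.91 and 10.90 on the phenylephrine arrays, and 10.96 and 10.88 on the stretch arrays. Both treatments lay below both controls, and they overlapped each other. The changes of -0.14 ± 0.11 with phenylephrine and -0.13 ± 0.11 with stretch did not pass (limma adjusted p = 0.598 and 1). Their intervals allowed falls of up to 1.31-fold and 1.30-fold and rises of up to 1.08-fold and 1.09-fold. Stretch and phenylephrine differed by 0.01 ± 0.11 (limma adjusted p = 0.983).

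Ckmt2, the mitochondrial creatine kinase of muscle (probe set 1388349_at), had 10.11 and 9.94 log2 on the control arrays, 10.19 and 9.81 on the phenylephrine arrays, and 10.59 and 10.48 on the stretch arrays. Both stretch arrays were above the other 4, while the phenylephrine arrays lay on either side of the controls, 0.38 apart. Stretch against control gave 0.51 ± 0.15, 1.42-fold with an interval from 1.12-fold to 1.80-fold, and did not pass over all probe sets (limma adjusted p = 0.474). Stretch against phenylephrine gave 0.54 ± 0.15 (limma adjusted p = 0.167), and phenylephrine against control -0.03 ± 0.15 (limma adjusted p = 0.96). After quantile normalization the values of 0.51 against control and 0.48 against phenylephrine passed (adjusted p = 0.0403 and 0.0203). Ckmt1, the mitochondrial form of other tissues, was dim, between 7.70 and 7.83 on all arrays, and its changes of 0.09 ± 0.06 with either treatment did not pass (limma adjusted p = 1 with stretch and 0.505 with phenylephrine).

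Arrays that do not overlap were common at 2 against 2. With stretch 35.9% of all probe sets did not overlap with control (19.4% higher, 16.5% lower), beside 5 of the 7 member probe sets (4 higher, 1 lower). With phenylephrine the share was 43.6% (21.5% higher, 22.1% lower), beside 5 of 7 (1 higher, 4 lower). Between stretch and phenylephrine it was 38.8% (21.6% higher, 17.2% lower in stretch), beside 4 of 7, all higher. So few arrays have too few arrangements for an exact permutation test to reach 0.05. The 3 comparisons share arrays and are not independent of each other. Over the 5 member genes the median change was 0.01 with stretch, -0.14 with phenylephrine and 0.24 for stretch against phenylephrine, beside 0.01, 0.01 and 0.00 over all probe sets.

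Beyond the members, 8 lists of creatine, adenine nucleotide and energy genes held 74 genes, of which 67 were measured, 62 of them no members. Of these 62, 3 rose and 1 fell with phenylephrine (14 at an unadjusted p under 0.05), limma called 0 with stretch (7 under 0.05 before adjustment), and 3 were lower and 0 higher in stretch than in phenylephrine cells. The 4 phenylephrine calls were 6.45% of the 62, and the 3 calls of stretch against phenylephrine 4.84%, beside 3.60% and 1.33% of all 31042 probe sets. These shares are not alike in unit. The 62 are genes, each read by its brightest probe set, while the 31042 include dimmer probe sets of the same genes and 9780 without a symbol. Before adjustment, 5142 of all probe sets were under 0.05 with phenylephrine, 1719 with stretch and 3871 for stretch against phenylephrine. The lists were chosen with earlier results of these data known. Median changes of the 62 were -0.01, 0.02 and 0.00 for phenylephrine, stretch and stretch against phenylephrine. Quantile normalization called 16 of all 67 pathway genes for phenylephrine in place of 5, 4 in place of 0 for stretch, and 13 in place of 4 for stretch against phenylephrine.

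**Figure D3:**
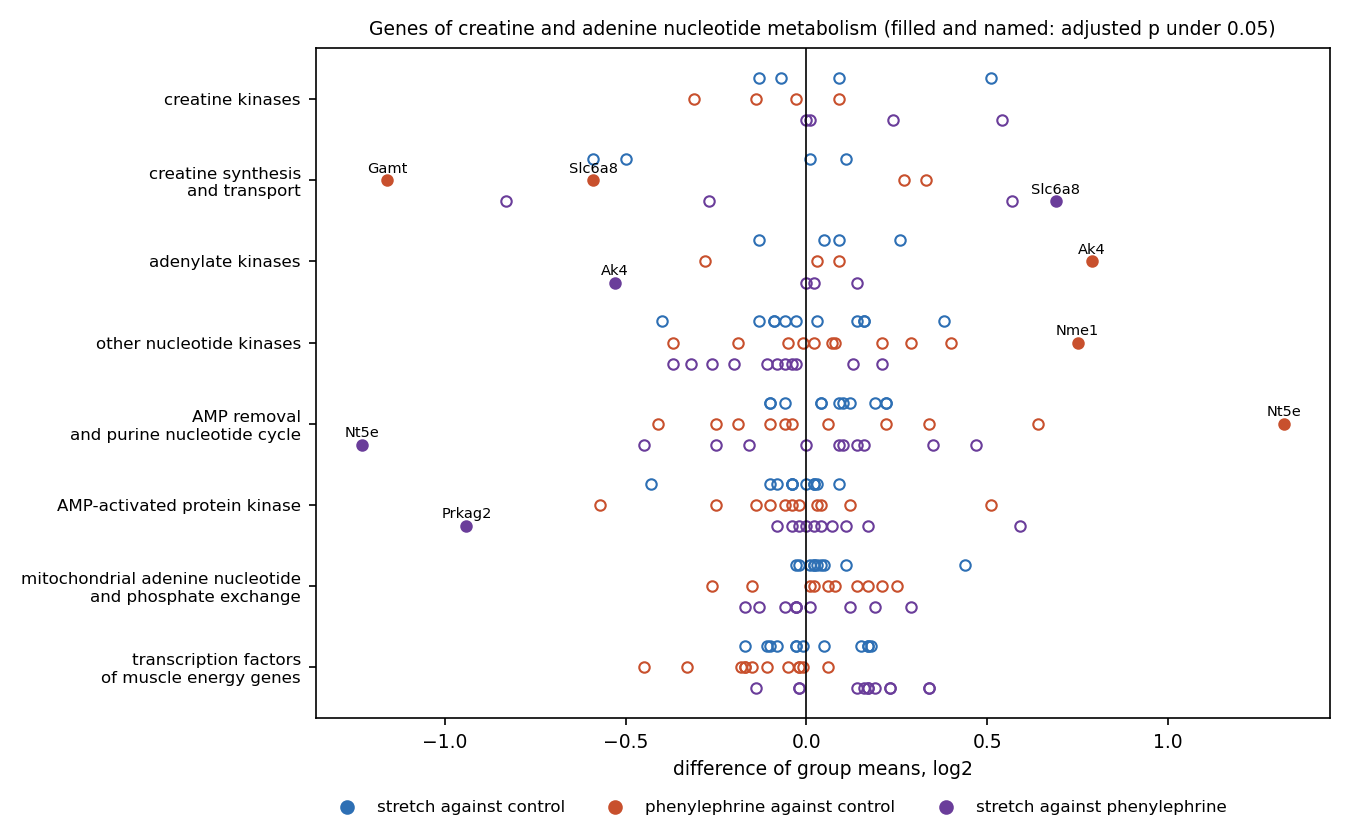
Differences of group means in log2 (horizontal axis) for the 67 measured genes of the 8 lists (vertical axis), 1 point per gene and comparison, for stretch against control (blue), phenylephrine against control (orange) and stretch against phenylephrine (violet). Filled and named points passed the threshold; none of the blue points did, and the outermost are Nt5e at 1.32 and -1.23 and Gamt at -1.16.

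Among adenylate kinases, 4 of 9 listed genes were measured, and Ak4 changed. Ak4, an adenylate kinase of the mitochondrial matrix (probe set 1371824_at), had 8.95 and 8.85 log2 on the control arrays, 9.62 and 9.75 on the phenylephrine arrays, and 9.19 and 9.13 on the stretch arrays. Phenylephrine was highest, stretch lay between, and no groups overlapped. The rise with phenylephrine was 0.79 ± 0.09, 1.72-fold with an interval from 1.48-fold to 2.00-fold (limma adjusted p = 0.00567). Stretch was 0.53 ± 0.09 below phenylephrine (a change of -0.53; limma adjusted p = 0.0424), and stretch against control gave 0.26 ± 0.09 (limma adjusted p = 0.705). The other Ak4 probe set, 1398285_at, was dim, at 7.76 to 7.95, with 0.12 ± 0.06 for phenylephrine (limma adjusted p = 0.403), so the mean of both moved the rise to 0.45 (adjusted p = 0.00407) and the difference to -0.31 (adjusted p = 0.0301). The phenylephrine call ended without control replicate 2 (adjusted p = 0.077). That of stretch against phenylephrine ended in the fit of those 2 groups (0.115) and without control replicate 1 (0.106) or 2 (0.106), phenylephrine replicate 2 (0.108), or stretch replicate 1 (0.247) or 2 (0.326).

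The other 3 adenylate kinases did not pass. Ak3, the mitochondrial form that uses GTP (probe set 1368095_at), had 11.57 and 11.63 on the control, 11.42 and 11.23 on the phenylephrine and 11.46 and 11.47 on the stretch arrays. Both treatments lay below both controls, with changes of -0.28 ± 0.12 with phenylephrine and -0.13 ± 0.12 with stretch (limma adjusted p = 0.293 and 1). Its second probe set, 1383733_at, gave -0.21 ± 0.16 and -0.13 ± 0.16. Ak5 lay between 7.22 and 7.37 and Ak7 between 6.90 and 7.16 on all arrays, below the array medians, with changes between 0.03 and 0.09 for both treatments.

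Among 11 measured genes of other nucleotide kinases, Nme1 rose with phenylephrine. It encodes a nucleoside diphosphate kinase, and its transcript resembles that of Nme2, so probe set 1370295_at may read both. It had 10.14 and 10.06 log2 on the control, 11.02 and 10.67 on the phenylephrine and 10.50 and 10.46 on the stretch arrays, without overlap. The rise with phenylephrine was 0.75 ± 0.14, 1.68-fold (limma adjusted p = 0.0278), and stretch against control gave 0.38 ± 0.14 (limma adjusted p = 0.703). The call ended in the fit of the 2 groups compared (0.0629) and without either control (0.143 without replicate 1, 0.22 without 2) or either stretch array (0.0632 and 0.0622).

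Of 11 measured genes of AMP removal and the purine nucleotide cycle, Nt5e changed. It encodes CD73, the ectoenzyme that turns AMP outside the cell into adenosine (probe set 1369200_at). Its values were 8.95 and 8.84 log2 on the control, 10.34 and 10.10 on the phenylephrine and 9.09 and 8.90 on the stretch arrays, so phenylephrine stood far above the other 4, which overlapped. It rose with phenylephrine by 1.32 ± 0.12, 2.50-fold with an interval from 2.07-fold to 3.02-fold (limma adjusted p = 0.00232). Stretch was 2.34-fold below phenylephrine (-1.23 ± 0.12; limma adjusted p = 0.00495), and both calls held in all 12 alternatives. Stretch against control gave 0.10 ± 0.12 (limma adjusted p = 1). CD73 is also found on other cells of the heart, whose markers moved in both directions with phenylephrine. Fibroblast and endothelial markers were mostly lower. Smooth muscle and pericyte markers were split, with Cnn1, Acta2 and Cspg4 higher and 5 of 10 below 0. The part of other cells in the rise of Nt5e was not tested.

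Of 11 genes of AMP-activated protein kinase and its activators, Prkag2 differed between the stimuli. It encodes a regulatory γ subunit that binds AMP (probe set 1383122_at). The values were 10.11 and 9.83 log2 on the control, 10.65 and 10.31 on the phenylephrine and 9.61 and 9.47 on the stretch arrays, with phenylephrine above and stretch below the controls. Stretch was 1.92-fold below phenylephrine (-0.94 ± 0.15; limma adjusted p = 0.0326). Neither change against control passed, at 0.51 ± 0.15 for phenylephrine and -0.43 ± 0.15 for stretch (limma adjusted p = 0.133 and 0.685). A second probe set, 1373952_at, gave -0.87 ± 0.10 for stretch against phenylephrine (limma adjusted p = 0.00947), and the remaining 2 were dim, with 0.07 ± 0.07 and -0.06 ± 0.07, so the mean of the 4 was -0.45 (adjusted p = 0.0149). The call of 1383122_at ended without phenylephrine replicate 1 (0.0673), stretch replicate 1 (0.159) or stretch replicate 2 (0.234), and quantile normalization called its change with phenylephrine (0.54; adjusted p = 0.0113).

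**Figure D4:**
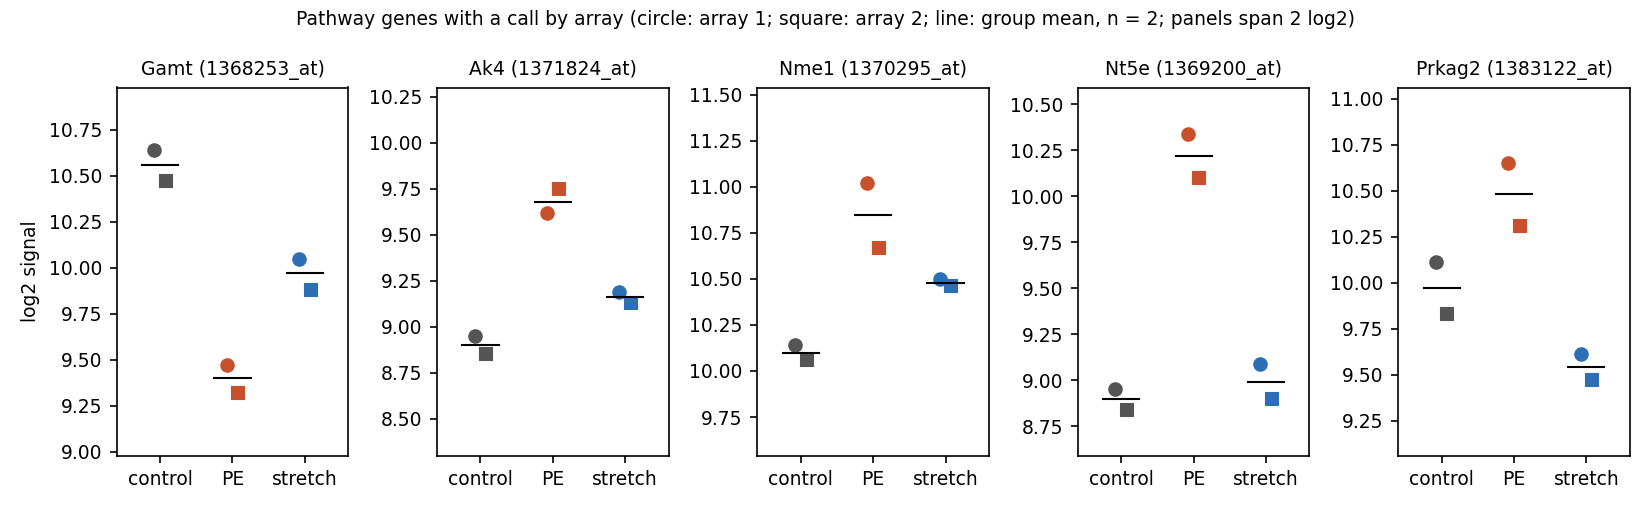
Log2 signal (vertical axis) of Gamt, Ak4, Nme1, Nt5e and Prkag2 on each array, by group (horizontal axis; PE is phenylephrine), with array 1 as a circle, array 2 as a square and the group mean (n = 2) as a line. Phenylephrine is lowest for Gamt and highest for the other 4 genes, and stretch is below the controls for Gamt and Prkag2.

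The remaining lists had no call in limma. Of 10 genes that exchange adenine nucleotides and phosphate across mitochondrial membranes, 0 passed (1 at an unadjusted p under 0.05 with stretch, and 2 each with phenylephrine and for stretch against phenylephrine). The largest value with stretch was that of Slc25a25, an ATP-Mg/phosphate carrier, at 0.44 ± 0.08 (limma adjusted p = 0.0946), which passed after quantile normalization (0.43; adjusted p = 0.0258). Its values were 8.35 and 8.32 on the control, 8.64 and 8.54 on the phenylephrine and 8.84 and 8.71 on the stretch arrays. The related carrier gene Slc25a23 had the largest values with phenylephrine (-0.26 ± 0.11; limma adjusted p = 0.29) and for stretch against phenylephrine (0.29 ± 0.11; limma adjusted p = 0.34). Its dimmer probe sets had the opposite signs. Probe set 1377550_at gave 0.08 ± 0.09 with phenylephrine and -0.04 ± 0.09 for stretch against phenylephrine, and 1379169_at gave 0.13 ± 0.08 and -0.04 ± 0.08.

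Of 12 transcription factors and coactivators of muscle energy genes, limma called 0 (before adjustment 0 were under 0.05 with stretch and with phenylephrine, and 1 for stretch against phenylephrine). With phenylephrine 11 of 12 had a change below 0, with a median of -0.13, beside 0.01 over all probe sets. The list means were 10.32 and 10.33 on the control arrays and 10.28 and 10.10 on the phenylephrine arrays. Phenylephrine replicate 2, the lowest, also had the narrowest range and the lowest hybridization controls. The largest change with phenylephrine was that of the coactivator gene Ppargc1b (-0.45 ± 0.23, limma adjusted p = 0.391), whose control arrays were 0.56 apart. With stretch the largest value was that of Mef2c at 0.18 ± 0.15 (limma adjusted p = 1), and the median was -0.02. For stretch against phenylephrine the median was 0.17, and Esrrb, an estrogen-related receptor gene, had 0.34 ± 0.09 (limma adjusted p = 0.139).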

How the data were processed

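Expression was measured in 6 arrays of cultured rat heart muscle cells, 2 per group, with groups and replicate numbers from the sample titles. The deposited values are log2 signals, 1 per probe set, taken as log2 because of their range. The authors' probe set summary, background correction and normalization are not stated in the sources used here. Array medians differed by 0.0381, below the limit of 0.3, so the values were kept. For arrays, their number limits the precision. Of the probe sets, 57 array controls were left out and 31042 tested. Of these, 20826 had 1 symbol, 436 several and 9780 none, and all 7 member probe sets matched the RefSeq table of GRCr8.

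One mean per group was fitted with limma 3.58.1 in R 4.3.3 (lmFit, eBayes with trend), two-sided. There were 3 residual degrees of freedom, to which the prior added 4.8. Simulated data with known changes were used to test the procedure. Their noise was independent between arrays, whereas same-numbered arrays deviated together here, so they cannot show how the fit performs under such shared deviations.

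Where a gene had several probe sets, the one with the highest mean over all arrays stood for it. Named were all member probe sets, pathway genes past the threshold, and in lists without one the largest change in each comparison. For each called member, the 3 genes of most similar values were named. The remaining genes of the creatine kinase, creatine supply and adenylate kinase lists were added after their values were seen. The members and lists were chosen with earlier results of these data known, and the motifs with the promoters in view. Alternatives were quantile normalization, the replicate number as a block, other variance priors, a filter on dim probe sets, only the groups compared, gene means, and each array left out. Same-numbered arrays deviated together, with correlations of 0.487 to 0.673, but no label says what they share.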

Additional observations from a re-analysis of the deposited data

How the results depend on the processing

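Quantile normalization called 386 probe sets with stretch, 2790 with phenylephrine and 1527 between the stimuli, in place of 107, 1117 and 413, with 1, 2 and 3 member probe sets in place of 0, 1 and 1, and 4, 16 and 13 pathway genes in place of 0, 5 and 4. With the replicate number as a block (replicate block), the counts were 1028, 5384 and 3734 probe sets, 1, 2 and 3 member probe sets, and 7, 19 and 15 pathway genes. The blocked limma fit kept the calls of Slc6a8, Gamt, Ak4, Nme1, Nt5e and Prkag2 (1383122_at) and added others. Of the added calls, only those of genes named earlier are listed, so the lists are shorter than these counts. With stretch it called Ckmt2 (adjusted p = 0.00411), Gamt (0.000426), Slc16a12 (0.00168), Nme1 (0.0379), Prkag2 (0.00714) and Slc25a25 (0.00121). With phenylephrine it called Gatm (0.0442), Slc16a12 (0.00689), Prkag2 (0.000545), Slc25a23 (0.0429), Slc25a25 (0.0122) and Ppargc1b (0.00721). For stretch against phenylephrine it called Ckmt2 (0.0012), Slc6a8 probe set 1367810_at (0.0012), Gamt (0.000233), Slc16a12 (1.24e-05), Nme1 (0.0172), Slc25a23 (0.0383), Ppargc1b (0.0421) and Esrrb (0.00722). The labels do not say that equal numbers pair the arrays. Without the variance trend 2 member probe sets passed for stretch against phenylephrine. With only the 2 groups compared, 661 and 230 probe sets, 0 and 0 member probe sets and 3 and 2 pathway genes passed for phenylephrine against control and stretch against phenylephrine, and Slc6a8 kept -0.59 and 0.69 but did not pass. The mean of both Slc6a8 probe sets gave -0.40 with phenylephrine. The cause of these changes was not tested.

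Over the 6 omissions of 1 array, the counts ran from 26 to 112 probe sets for stretch, 189 to 1249 for phenylephrine and 51 to 473 for stretch against phenylephrine. Member probe sets ran from 0 to 1 for phenylephrine and from 0 to 1 for stretch against phenylephrine, and pathway genes from 2 to 5 and from 1 to 3. Slc6a8 (1386934_at) ran from -0.69 to -0.48 and from 0.59 to 0.80.

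No called change reversed. Values near 0 changed sign under quantile normalization: Gatm with stretch (-0.0055), Ckmt2 with phenylephrine (0.024), and Ckb (-0.030) and Gatm 1377784_at (-0.0026) for stretch against phenylephrine. With 1 array omitted, values with stretch ran from -0.18 to 0.032 for Ckm, -0.15 to 0.16 for Gatm, -0.026 to 0.13 for Ak5, -0.0007 to 0.19 for Nt5e, -0.015 to 0.062 for Slc25a23 and -0.40 to 0.18 for Ppargc1b. With phenylephrine they ran from -0.22 to 0.16 for Ckmt2, -0.028 to 0.22 for Ak7 and -0.23 to 0.13 for Mef2c. For stretch against phenylephrine they ran from -0.023 to 0.049 for Ckb, -0.045 to 0.046 for Gatm 1377784_at, -0.029 to 0.025 for Ckmt1, -0.057 to 0.095 for Ak5 and -0.12 to 0.12 for Ak7. Signal limits dim probe sets (Ckmt1, Ak5, Ak7 and Gatm 1377784_at), where a change may lie below what the array resolves, and Ckm, near the top of the scale.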
